A study of Mus musculus with 7 samples.

Results

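The genes described here are 38 genes of the interferon response and of antigen presentation by MHC class I, given as a list of symbols and measured by RNA sequencing in neurons isolated from mouse brain. Every symbol was found among the 46333 genes of the count tables, and all 38 passed the filter on low counts that left 21542 genes for testing. Of the 38, 29 are interferon response genes and 9 encode MHC class I molecules or the machinery that supplies them with peptides.

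Mice with the genotype il4ra fl/fl.Syn cre+ (3 libraries) were set against il4ra fl/fl.Syn cre- littermates (4 libraries), all adult females of a C57Bl/6 background. Il4ra encodes the alpha chain of the interleukin-4 receptor, both genotypes carry its floxed alleles, and Syn cre is a Cre recombinase driven by the promoter of synapsin 1, a neuronal gene. The cre- mice lack the transgene, so an effect of Cre itself and of the loss of Il4ra cannot be told apart. Neurons were the fraction of dissociated whole brain left after magnetic removal of cells bound by antibodies to microglia, oligodendrocytes and astrocytes, and no antibody to blood vessel cells is named in that step. The study checked the purity of this fraction by flow cytometry, with an antibody to endothelial cells among those used, and describes it as highly enriched in neurons. Levels given here are those of the whole fraction, not of neurons alone.

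Interferons of type I are cytokines released when a cell senses viral nucleic acid. Type I interferon acts through the receptor chains IFNAR1 and IFNAR2 and the kinases JAK1 and TYK2 to activate a complex that contains STAT2 and IRF9 and binds the interferon-stimulated response element in the promoters of its target genes. The targets include sensors of foreign RNA, proteins that block virus entry or translation, and the MHC class I pathway, in which peptides cut by the immunoproteasome (PSMB8, PSMB9) are carried into the endoplasmic reticulum by TAP1 and TAP2, loaded with the help of tapasin and shown at the cell surface by a heavy chain paired with B2M. Neurons are known for low basal levels of MHC class I, and endothelial cells and microglia for higher ones.

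Promoter windows were read from RefSeq (GRCm38.p6, a different build from the GRCm39 of the counts), each running from 250 bases before a transcription start to 50 after it. Of the 38 genes, 30 had a window. The core of the response element, taken as GAAA, any 2 bases and GAAA on either strand, occurred in a window of 14 of these 30 genes (46.67%), against 3.993% of all 27025 genes with a window. The core of the gamma-activated site, TTCNNNGAA, which reads the same on both strands, occurred in 8 of the 30, against 9.554% of all genes. The stretches below are shown because they cover the kinds of promoter in the list: a ubiquitin-like protein with overlapping cores, an antiviral effector with a pair of cores, and the genes whose levels are described most fully further on. Capitals mark the core of the response element or its reverse complement, and positions count from the start, with -1 the base before it.
Isg15, -100 to -1, chr4:156200819-156200918, minus strand: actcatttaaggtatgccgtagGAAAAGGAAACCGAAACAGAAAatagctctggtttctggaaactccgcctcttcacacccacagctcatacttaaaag
Ifit1, -130 to -1, chr19:34640759-34640888, plus strand: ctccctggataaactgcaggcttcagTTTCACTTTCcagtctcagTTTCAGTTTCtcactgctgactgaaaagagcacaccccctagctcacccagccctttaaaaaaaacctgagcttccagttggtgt
Ifitm2, -100 to -1, chr7:140955962-140956061, minus strand: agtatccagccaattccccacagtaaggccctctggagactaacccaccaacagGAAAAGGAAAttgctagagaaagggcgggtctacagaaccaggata
B2m, -160 to -1, chr2:122147527-122147686, plus strand: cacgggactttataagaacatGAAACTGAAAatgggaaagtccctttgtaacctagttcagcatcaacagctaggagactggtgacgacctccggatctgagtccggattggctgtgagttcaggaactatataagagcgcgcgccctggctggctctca
Tapbp, -160 to -1, chr17:33919318-33919477, plus strand: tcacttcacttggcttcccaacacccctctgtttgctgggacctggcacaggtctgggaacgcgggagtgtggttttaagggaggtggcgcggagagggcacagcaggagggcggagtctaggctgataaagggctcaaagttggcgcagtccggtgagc
Ifih1, 21 to 50, chr2:62646206-62646235, minus strand: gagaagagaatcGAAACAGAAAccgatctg

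In Isg15 the 3 cores began at -78, -72 and -66, each overlapping the next. Those of Ifit1 began at -104 and -85, that of Ifitm2 at -46, that of B2m at -139 and that of Ifih1 at 33, past the start. The windows of Tapbp, Tap1, Psmb8, Psmb9, H2-K1 and H2-D1 did not hold the core. Nor did those of several interferon response genes, among them Irf7, Irf9, Oasl2 and Ifit2. Such an absence says only that these letters are not in the window. Ifi27 and Tap2 were among the genes with no window. Tap1 and Psmb9 lie head to head on opposite strands, and their windows share 275 bases.

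The libraries held 75707411 to 94376841 counts in cre+ and 68213223 to 89951002 in cre-. Il4ra itself was at 24.4 to 29.5 CPM (library-scaled counts after TMM normalization) in cre+ and 20.03 to 29.6 CPM in cre- libraries (log2 fold change 0.21 ± 0.15, SE, adjusted p = 0.487, edgeR). A count over the whole gene includes exons that Cre leaves in place, so it does not check the genotype. Marker genes of cells other than neurons were found in both genotypes, and most classes of them stood higher in cre+ libraries. The sum over 12 endothelial markers was 14304 to 20897 CPM in cre+ and 9586 to 13246 CPM in cre- libraries, with no overlap, all 12 markers had a positive log2 fold change (median 0.62), and none was at 0 in any library. The mural sum (614 to 870 CPM in cre+ and 409 to 589 CPM in cre- libraries) and the astrocyte sum (1586 to 1763 CPM in cre+ and 930 to 1229 CPM in cre- libraries) did not overlap either, with median log2 fold changes of 0.71 and 0.72. The medians were 0.99 for meningeal fibroblast, 0.94 for border macrophage, 0.87 for ependymal and choroid plexus, 0.48 for oligodendrocyte and 0.41 for microglia markers, while all 12 lymphocyte and blood markers were negative (median -0.49). DESeq2 called 9 of 12 endothelial, 6 of 10 mural, 3 of 8 fibroblast and 4 of 10 astrocyte markers higher, where edgeR called 0. DESeq2 also called 3 of 10 oligodendrocyte, 1 of 8 ependymal and choroid plexus, 0 of 10 microglia and 0 of 6 border macrophage markers higher, against 5.08% of all genes. The border macrophage markers were low, with sums of 7.00 to 14.1 CPM in cre+ and 5.22 to 6.76 CPM in cre- libraries. The sum over 12 neuron markers was 1210 to 2335 CPM in cre+ and 2263 to 3744 CPM in cre- libraries. All 12 neuron markers had a negative log2 fold change (median -0.75), and DESeq2 called 3 of them lower, against 4.15% of all genes. In such bulk RNA, fewer cells of a type and less RNA per cell cannot be told apart.

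Most of the 38 genes had higher mean levels in cre+ than in cre- libraries, but by little against the spread between libraries. The log2 fold change was positive for 34 of the 38, where it was positive for 46% of all genes tested, and its median was 0.34 against -0.04 over all genes tested. In edgeR, 0 of 38 passed an adjusted p of 0.05 in either direction (0% of all genes tested did), with 0.112 the lowest adjusted p. Under an unadjusted threshold of 0.05, 11 genes were higher and 0 lower, where 10.2% of all genes were higher and 9.75% lower, and limma-voom called 0. DESeq2, the test the study used, called 5 genes higher (Ifih1, Ifi27, Ifitm2, Tap2 and Tapbp), against 5.08% of all genes, and 0 lower, against 4.15%. The 3 cre+ libraries lay above all 4 cre- libraries for 6 genes, which are these 5 and Eif2ak2, where 8.94% of all genes did so. No gene of the list lay below in that way (9.72% of all genes did). The 5 DESeq2 calls were lost when cre+ replicate 1 was left out, and also without cre- replicate 2 or without cre- replicate 3, with 0 of the 38 genes called each time. Calls fell over all genes as well, with 591, 407 and 545 genes called higher in these settings, in that order, against 1095 with every library.

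**Figure D1:**
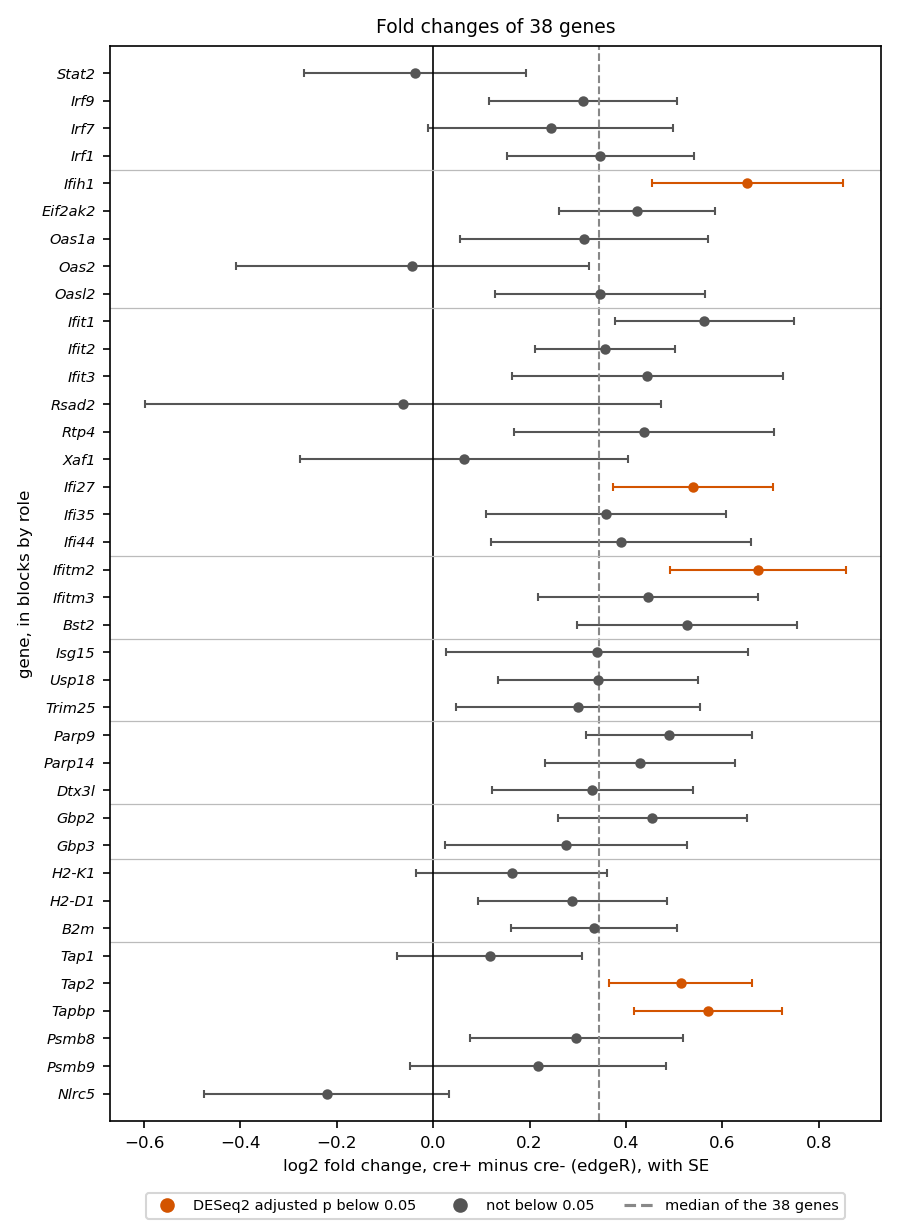
Log2 fold change (cre+ minus cre-, edgeR, horizontal axis) of each of the 38 genes, in blocks by role down the page, with bars of 1 SE. The 5 genes called by DESeq2 are orange and have values from 0.51 to 0.67, the dashed line is the median of 0.34, and 4 genes lie below 0.

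Among the transcription factors of the response, none passed a test. Irf1, a factor induced mainly by interferon gamma, had 111, 65.5 and 76.2 CPM in cre+ libraries, against 55.3, 62.7, 66.1 and 80.9 CPM in cre- libraries. Irf9, the DNA-binding subunit of the STAT complex, had 115, 68.2 and 72.8 CPM in cre+, against 57.8, 65.6, 69.3 and 82.2 CPM in cre-. For both genes only cre+ replicate 1 stood above the cre- range, and the log2 fold changes were 0.35 ± 0.19 and 0.31 ± 0.19 (SE), neither past the threshold in edgeR (adjusted p = 0.357 and 0.412). Irf7, which amplifies the type I response, had 0.24 ± 0.25, and Stat2, which acts in a complex with IRF9, had -0.04 ± 0.23. In the GENCODE M39 gene models, which are used for all overlaps named here, Irf9 overlaps Rnf31 on the same strand, and Irf7 overlaps Phrf1 on the opposite strand. The sources used here do not say whether counting used strand, so reads of such neighbors cannot be told apart.

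The RNA sensors and the kinase PKR differed among themselves. Ifih1 (chromosome 2, 62426142 to 62476599, minus strand, GRCm39) encodes MDA5, a cytoplasmic sensor of long double-stranded RNA. It had 69.4, 44.9 and 40.9 CPM in cre+ libraries, against 33.1, 27.5, 31.4 and 39.6 CPM in cre- libraries. The genotypes did not overlap, although cre+ replicate 3 and cre- replicate 4 were nearly level. For Ifih1 the log2 fold change was 0.65 ± 0.20 (SE), past the threshold in DESeq2 (adjusted p = 0.0384) and short of it in edgeR (adjusted p = 0.137), and an exact two-sided permutation test over 35 arrangements gave p = 0.0571. Eif2ak2, which encodes PKR, a kinase that halts translation when it binds double-stranded RNA, had 65.3, 46.3 and 45.0 CPM in cre+, against 35.01, 42.6, 33.9 and 44.2 CPM in cre-. Its groups were also apart, by less than 1 SD of either, and its log2 fold change was 0.42 ± 0.16 (adjusted p = 0.201 by edgeR, 0.121 by DESeq2). The oligoadenylate synthetase genes, whose products activate RNase L, overlapped between genotypes. Oas1a had a log2 fold change of 0.31 ± 0.26, the related Oasl2 0.35 ± 0.22, and Oas2, with 437 counts in its lowest library the least counted of the 38, -0.04 ± 0.37.

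The 9 IFIT and other antiviral effector genes included 1 DESeq2 call, Ifi27 (chromosome 12, 103400470 to 103406498, plus strand), an interferon-inducible gene whose product is a small hydrophobic membrane protein. Ifi27 had 206, 169 and 129.7 CPM in cre+ libraries, against 127.4, 98.6, 108 and 128.8 CPM in cre- libraries. Cre+ replicate 3 exceeded the highest cre- library by less than 1 CPM. Its log2 fold change of 0.54 ± 0.17 (SE) passed in DESeq2 (adjusted p = 0.0441) and not in edgeR (adjusted p = 0.141), and the exact two-sided permutation p was 0.0286, the smallest that 35 arrangements can give. In the GENCODE M39 gene models Ifi27l2a overlaps it on the opposite strand, whereas at the coordinates in the count tables (103408426 to 103409939) it lies past the end of Ifi27. Ifit1, whose product binds viral RNA that lacks the host cap methylation, had 65.7, 38.8 and 49.3 CPM in cre+, against 29.6, 37.2, 31.8 and 40.3 CPM in cre-. Here cre+ replicate 2 lay below cre- replicate 4, and the log2 fold change of 0.56 ± 0.18 passed in neither tool (adjusted p = 0.159 by edgeR, 0.0612 by DESeq2). Its neighbors Ifit2 and Ifit3 had log2 fold changes of 0.36 ± 0.15 and 0.44 ± 0.28, and Ifit3 may share reads with its near copy Ifit3b. Rtp4 (0.44 ± 0.27), Ifi44 (0.39 ± 0.27), Ifi35 (0.36 ± 0.25) and Xaf1 (0.06 ± 0.34) overlapped between genotypes in every case.

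Rsad2, which encodes viperin, an enzyme that makes a chain-terminating nucleotide, followed another order and was singled out after its values were seen. It had 190, 62.9 and 58.3 CPM in cre+ libraries, against 209, 63.3, 67.6 and 93.3 CPM in cre- libraries. Replicate 1 of each genotype stood far above the rest, and the log2 fold change was -0.06 ± 0.54 (SE, adjusted p = 0.966 in edgeR). Replicate numbers do not pair these libraries by the labels.

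Of the 3 genes for restriction factors in membranes, Ifitm2 had the largest fold change of the 38. Ifitm2 (chromosome 7, 140534750 to 140535900, minus strand) encodes a protein that hinders the fusion of viruses with endosomes. It had 102.5, 64.9 and 96.3 CPM in cre+ libraries, against 56.0, 43.0, 57.2 and 64.2 CPM in cre- libraries. Cre+ replicates 1 and 3 were clearly above the cre- range, while cre+ replicate 2 was level with cre- replicate 4. Cre+ libraries averaged 87.9 ± 20.1 CPM (SD, n = 3), against 55.1 ± 8.85 CPM (SD, n = 4) for cre- libraries. Ifitm2 had a log2 fold change of 0.67 ± 0.18 (SE), an adjusted p of 0.0186 by DESeq2 and 0.112 by edgeR, and an exact permutation p of 0.0286. Bst2, which encodes tetherin, a protein that holds budding virions on the cell surface, had 82.1, 44.3 and 51.1 CPM in cre+, against 42.0, 30.2, 45.2 and 47.1 CPM in cre-. The groups overlapped, with a log2 fold change of 0.53 ± 0.23 (adjusted p = 0.246, edgeR). Ifitm3, close in sequence to Ifitm2, had 0.44 ± 0.23, and both may share reads. Ifitm2 overlaps Gm45717 on the same strand and Gm74434 on the opposite strand.

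None of the genes of the ISG15 system, the PARP9-DTX3L group or the guanylate-binding proteins passed a test. Usp18, a protease that removes ISG15 from proteins and dampens receptor signaling, had 37.6, 22.01 and 26.6 CPM in cre+ libraries, against 19.5, 23.3, 19.6 and 28.3 CPM in cre- libraries. Trim25, a ubiquitin ligase that acts with RIG-I, had 135, 71.1 and 61.1 CPM in cre+, against 63.4, 75.3, 68.5 and 82.5 CPM in cre-. In both only cre+ replicate 1 was above every cre- library. The log2 fold changes were 0.34 ± 0.21 for Usp18, 0.30 ± 0.25 for Trim25 and 0.34 ± 0.31 for Isg15 (SE). Parp9, which pairs with the ubiquitin ligase DTX3L, had 40.8, 27.8 and 30.6 CPM in cre+, against 20.7, 21.5, 22.8 and 29.2 CPM in cre-. Parp14, another mono-ADP-ribosyltransferase of the family, had 84.7, 50.5 and 60.4 CPM in cre+, against 37.3, 51.9, 47.6 and 56.9 CPM in cre-. For both genes cre+ replicates 1 and 3 were above every cre- library and cre+ replicate 2 was not. Their log2 fold changes were 0.49 ± 0.17 and 0.43 ± 0.20 (SE, adjusted p = 0.177 and 0.266 in edgeR). Dtx3l, on the opposite strand of Parp9 and overlapping it, had 0.33 ± 0.21. Gbp2, a GTPase that attacks the membranes of intracellular pathogens, had 76.6, 44.7 and 66.0 CPM in cre+, against 41.8, 40.2, 42.9 and 57.3 CPM in cre-. Its log2 fold change was 0.45 ± 0.20 (adjusted p = 0.24 in edgeR), that of Gbp3 0.28 ± 0.25, and Gbp2 and Gbp3 belong to a family of similar genes that may share reads.

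The MHC class I molecules themselves were the most abundant of the 38 genes per length of transcript and none of them passed a test. Per kilobase of merged exons, H2-D1 averaged 231 CPM in cre+ and 190 CPM in cre- libraries. B2m averaged 222 CPM per kilobase in cre+ and 176 in cre-, H2-K1 170 in cre+ and 152 in cre-, and Ifitm3, the next of the 38, 134 in cre+ and 98.5 in cre-. H2-K1, a classical heavy chain, had 643, 390 and 591 CPM in cre+ libraries, against 418, 416, 513 and 587 CPM in cre- libraries. Cre+ replicate 2 was the lowest of all 7 libraries, and the log2 fold change was 0.16 ± 0.20 (SE, adjusted p = 0.705 in edgeR). H2-D1, the other classical heavy chain here, had 840, 518 and 720 CPM in cre+, against 505, 468, 607 and 689 CPM in cre-. B2m, the light chain shared by all class I molecules, had 533, 401 and 469.9 CPM in cre+, against 323, 302, 401 and 460 CPM in cre-. For both, cre+ replicates 1 and 3 were above every cre- library and cre+ replicate 2 was within the cre- range. The log2 fold changes were 0.29 ± 0.20 for H2-D1 and 0.33 ± 0.17 for B2m (adjusted p = 0.453 and 0.317, edgeR). Reads of H2-K1, H2-D1 and other class I genes may be shared, since their sequences are similar.

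The genes that supply peptides to MHC class I held the other pair of DESeq2 calls. Tapbp (chromosome 17, 34134873 to 34148266, plus strand) encodes tapasin, which bridges class I molecules and the peptide transporter. It had 266, 183 and 244 CPM in cre+ libraries, against 151, 130.0, 165 and 176 CPM in cre- libraries. Cre+ libraries averaged 231 ± 43.2 CPM (SD, n = 3), against 156 ± 19.9 CPM (SD, n = 4) for cre- libraries, and the genotypes did not overlap. Tapbp had a log2 fold change of 0.57 ± 0.15 (SE), an adjusted p of 0.0179 by DESeq2 and 0.112 by edgeR, and an exact permutation p of 0.0286. Tapbp overlaps Zbtb22 on the same strand. Tap2 (chromosome 17, 34422501 to 34435295, plus strand), a subunit of the transporter, had 158, 104 and 128 CPM in cre+, against 87.6, 81.8, 91.4 and 103 CPM in cre-. Cre+ replicate 2 and cre- replicate 4 were within 1 CPM of each other, and the log2 fold change of 0.51 ± 0.15 passed in DESeq2 (adjusted p = 0.033) and not in edgeR (adjusted p = 0.124). Tap1, the other subunit, had 0.12 ± 0.19, Psmb8 0.30 ± 0.22 and Psmb9 0.22 ± 0.27, and each overlapped between genotypes. Tap1 and Psmb9 overlap on opposite strands. Nlrc5, the transactivator of class I genes, had the lowest log2 fold change of the list, -0.22 ± 0.25, with 19.3, 10.9 and 21.3 CPM in cre+, against 16.6, 16.4, 21.7 and 25.3 CPM in cre-.

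**Figure D2:**
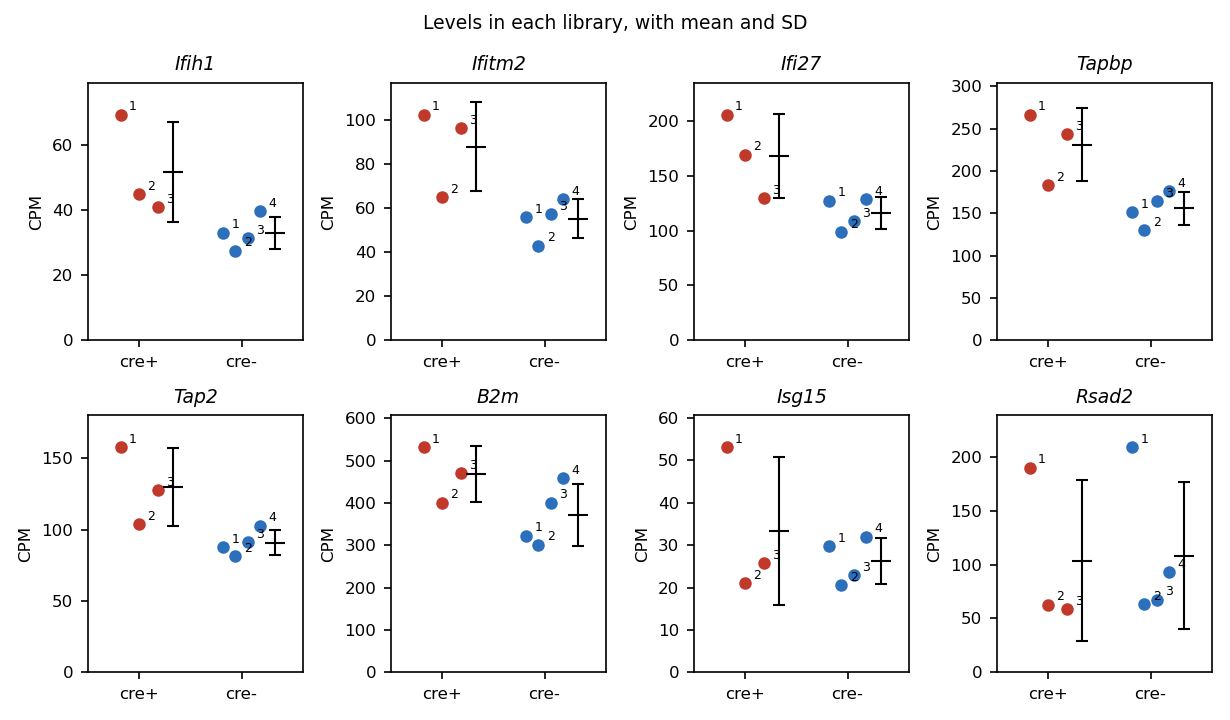
Level in CPM (vertical axis, from 0) of 8 genes, each point a library with its replicate number, and beside each group its mean with 1 SD. In the top row and in Tap2 the genotypes do not overlap, B2m and Isg15 do, and in Rsad2 replicate 1 of each genotype is far above the others.

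The genes shared an order of the libraries, within each genotype as well as between them. Cre+ replicate 1 was the highest of the 7 libraries for 36 of the 38 genes (it was highest for 19.2% of all genes tested), the exceptions being Rsad2 and Nlrc5. Cre+ replicate 3 was above every cre- library for 19 genes (22.3% of all genes) and cre+ replicate 2 for 6 (25.4%). Cre+ replicate 2 was the lowest cre+ library for 33 of the 38, against 33.4% of all genes. Among the cre- libraries, replicate 4 was the highest for 34 of the 38, against 23.4% of all genes. In median deviation from the cre- mean on the log2 scale, the 38 genes stood at 0.79, -0.05 and 0.29 in cre+ replicates 1 to 3, and at -0.16, -0.10, -0.02 and 0.30 in cre- replicates 1 to 4. By this measure cre- replicate 4 was level with cre+ replicate 3, and cre+ replicate 2 lay within the cre- range. The level in cre+ replicate 1 was 1.19 to 3.13 times the mean of cre+ replicates 2 and 3, with a median of 1.56 times over the genes.

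**Figure D3:**
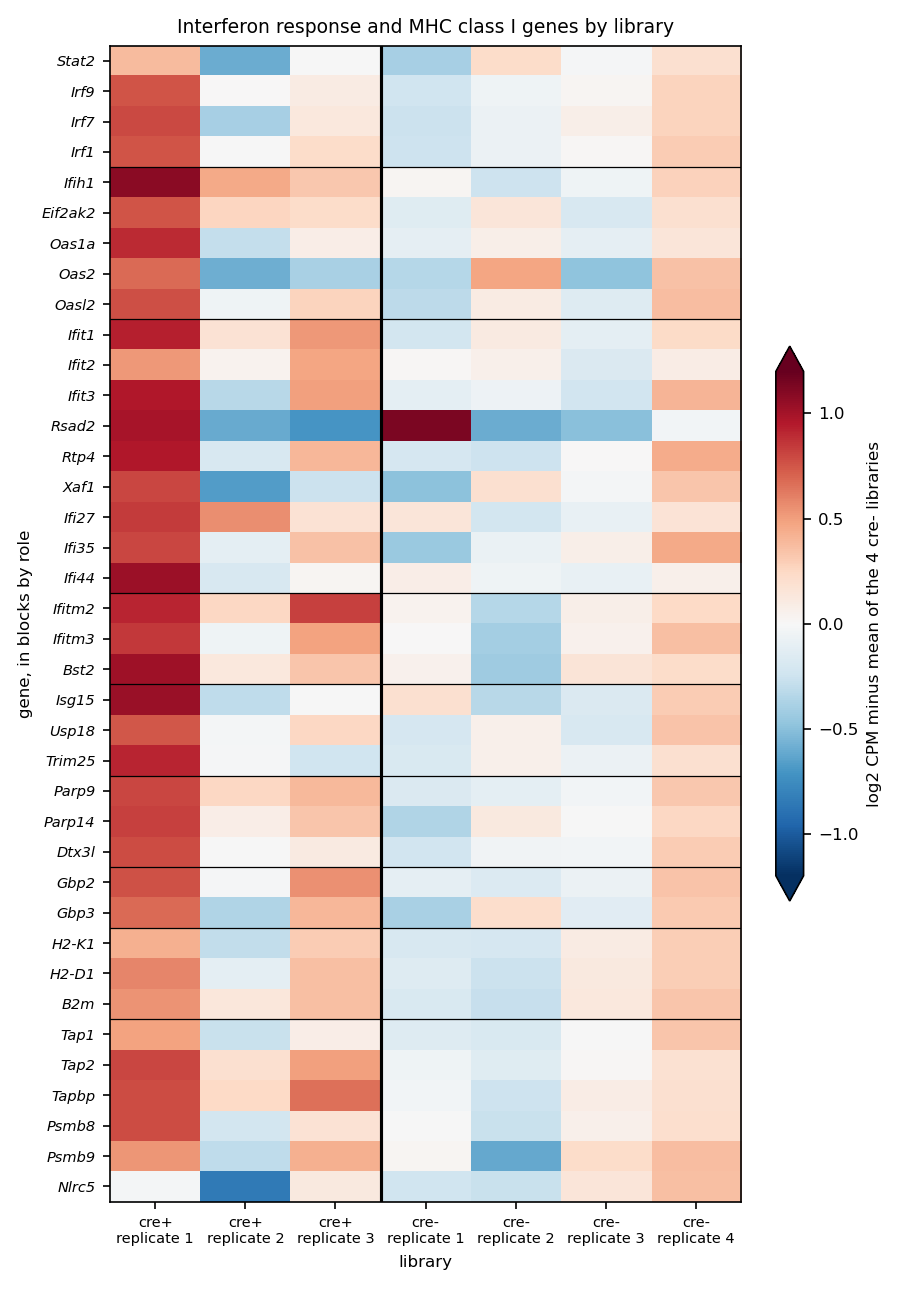
Log2 CPM of each of the 38 genes (down the page, in blocks by role) in the 7 libraries (cre+ left of the line, cre- right of it), minus the mean of the 4 cre- libraries, with red higher and blue lower. The column of cre+ replicate 1 is red in all genes but Nlrc5, that of cre+ replicate 2 is pale or blue in most, and cre- replicate 4 is the cre- column with the most red genes.

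The library order of these genes was set beside that of the cell markers. The endothelial sum was 20897, 15022 and 14304 CPM in cre+ replicates 1 to 3, and 9655, 9586, 9645 and 13246 CPM in cre- replicates 1 to 4. Within each genotype, the library with the highest endothelial sum was thus the library in which most of the 38 genes were highest. The order did not hold throughout, since cre+ replicate 2 had a larger endothelial sum than any cre- library while its median deviation was -0.05. The mural sum was 870, 614 and 859 CPM in cre+ replicates 1 to 3, the same order as the median deviations of the 38 genes. In cre- replicates 1 to 4 it was 589, 460, 409 and 465 CPM. It was thus highest in cre- replicate 1, where the median deviation was lowest. The astrocyte sum was highest in replicate 3 (1229 CPM) among the cre- libraries and lowest in replicate 1 (1586 CPM) among the cre+ libraries. The part of mural cells and astrocytes in the levels of the 38 genes was not tested. The endothelial tight junction gene Cldn5 was at 2422 ± 1237 CPM (SD, n = 3) for cre+, against 1845 ± 200.5 CPM (SD, n = 4) for cre- libraries. By library it had 3848, 1636 and 1783 CPM in cre+, against 1869, 1647, 1752 and 2113 CPM in cre-. Unlike the endothelial sum, Cldn5 overlapped between genotypes, and cre+ replicate 2 was its lowest library. The neuron sum of each genotype was lowest in the library with the highest endothelial sum, at 1210 CPM in cre+ replicate 1 and 2263 CPM in cre- replicate 4. The sum over 10 microglia markers followed another order, at 765, 1198 and 962 CPM in cre+, against 192, 617, 1807 and 282 CPM in cre- libraries. With a vascular covariate, the mean log2 CPM of the endothelial and mural markers, the median log2 fold change of the 38 genes was -0.07 (-0.06 over all genes tested). Of the 38, 16 were positive, against 45.9% of all genes tested, and DESeq2 called 0. Over all 29539 genes DESeq2 called only 57 higher and 81 lower with this covariate. The endothelial sum was higher in every cre+ than in every cre- library, so genotype and vascular content cannot be told apart in this fit. With microglia and border macrophage markers as the covariate the median was 0.42, and DESeq2 again called 0 of the 38, where it called 547 of all genes higher and 288 lower.

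**Figure D4:**
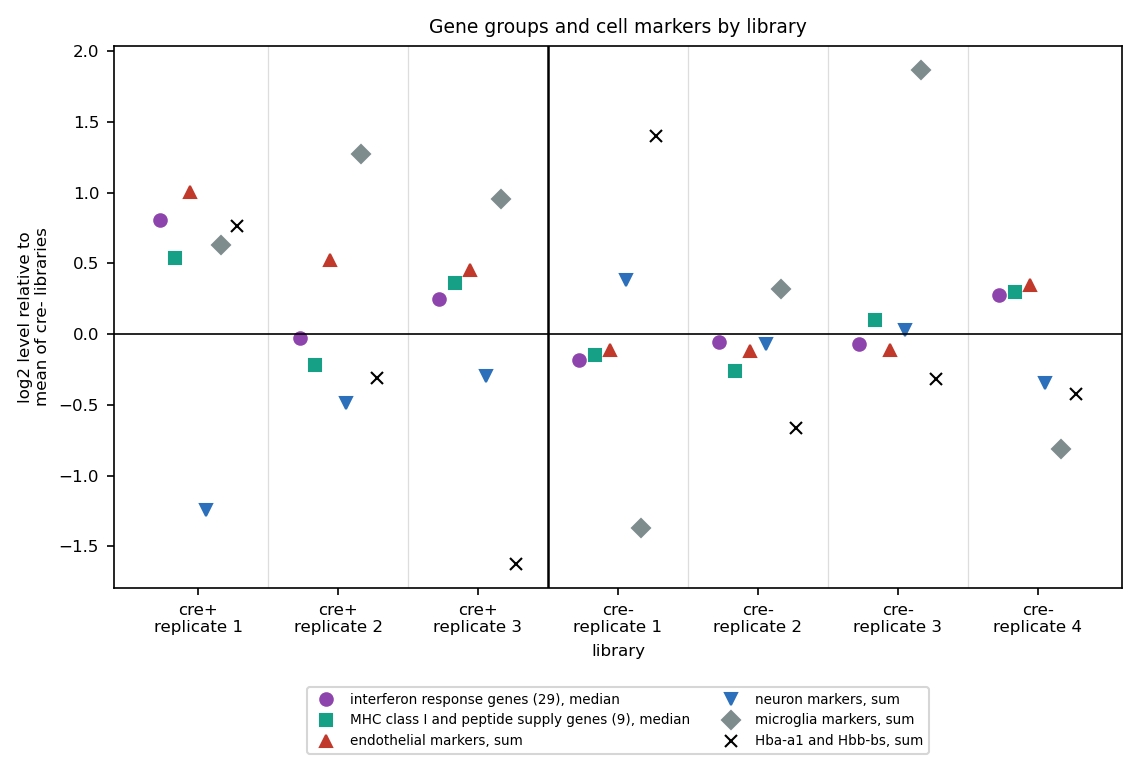
Log2 level relative to the mean of the 4 cre- libraries (vertical axis) for 6 measures in each library (cre+ left of the line, cre- right of it): the medians of the 29 interferon response and 9 MHC class I and peptide supply genes, and the summed CPM of marker genes. Cre+ replicate 1 has the highest gene medians and endothelial sum and the lowest neuron sum, while microglia and globin sums follow other orders.

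Without cre+ replicate 1, the median log2 fold change of the 38 genes was 0.09 (-0.05 over all genes tested), 26 of 38 were positive, and the log2 fold changes of Ifitm2, Tapbp and Ifih1 were 0.54, 0.45 and 0.38. Without cre+ replicate 2 the median was 0.51 and all 38 were positive. Scaled by library totals with no further factor, the median was 0.22, where that of all genes was -0.16, and DESeq2 called Ifitm2 only.

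**Figure D5:**
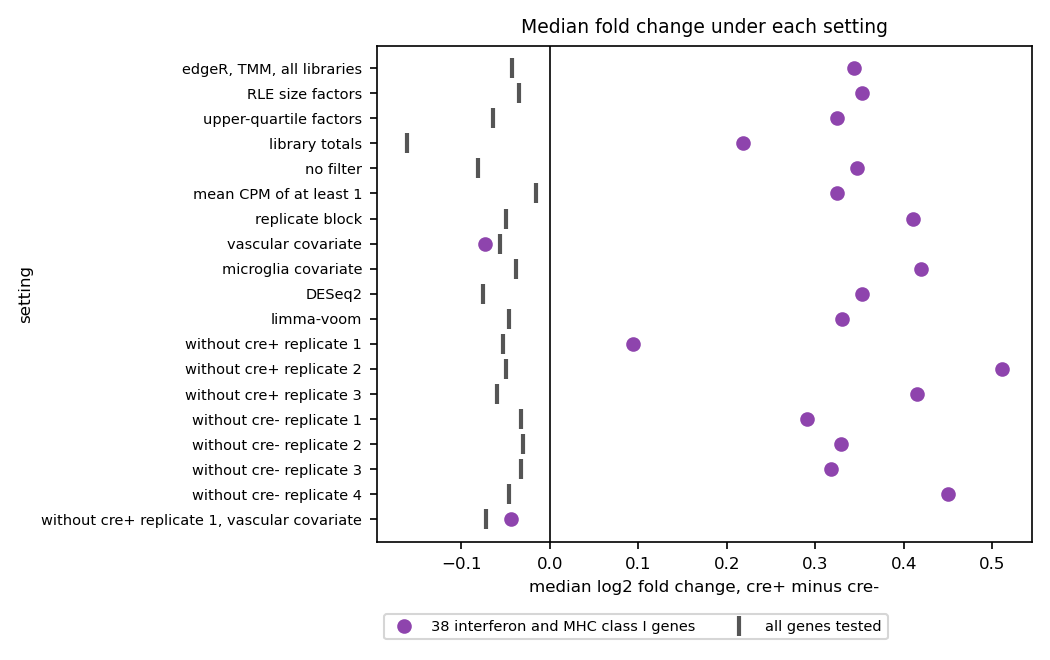
Median log2 fold change (cre+ minus cre-, horizontal axis) of the 38 genes (points) and of all genes tested (bars) under each setting (down the page). The points lie between 0.22 and 0.51 except at 0.09 without cre+ replicate 1, at -0.07 with the vascular covariate and at -0.04 with both of these together.

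Other genes of the pathway were counted from lists of 129 symbols, of which 127 were found and 112 were tested. In edgeR 0 passed in either direction, with 17 higher and 2 lower at an unadjusted p under 0.05 (10.2% and 9.75% of all genes tested). DESeq2 called 7 of the 112 higher and 0 lower, against 5.08% and 4.15% of all genes, so its share of higher calls was near that of all genes. The median log2 fold change was 0.25, with 83 positive and 29 negative, where 46% of all genes were positive. Interferon genes themselves were hardly measured: of 10 interferons, 8 had 0 counts in all 7 libraries, which allows up to 3 counts in a library, Ifna5 had 3 counts in cre- replicate 4 alone, and Ifng had 26 to 63 counts in cre+ and 16 to 66 in cre- libraries. Among 10 receptor and signaling genes, DESeq2 called Ifngr1, a chain of the interferon gamma receptor (0.51 ± 0.15, SE, DESeq2 adjusted p = 0.035), and Il10rb, a chain shared by the interferon lambda and interleukin-10 receptors (0.56 ± 0.17, DESeq2 adjusted p = 0.0433). Ifnar1, a chain of the type I receptor, had 0.31 ± 0.20, with no call. Among 41 tested further interferon-stimulated genes, DESeq2 called Slfn5 (0.67 ± 0.19), Lgals3bp (0.52 ± 0.15) and Znfx1 (0.42 ± 0.11). Among 8 further genes of peptide loading it called Erap1, an aminopeptidase that trims peptides for class I (0.63 ± 0.15), and Pdia3, a chaperone of the loading complex (0.41 ± 0.12), and all 8 were positive. The 11 tested other MHC class I genes were split, with 5 positive and 6 negative, a median of -0.19 and no call. The sign largely went with level. In cre+ libraries the 5 positive genes averaged 16.01 CPM (H2-M3) to 185 CPM (H2-T23), and the 6 negative ones 0.104 to 8.31 CPM. In cre- libraries H2-M5, a negative gene, averaged 12.5 CPM and H2-M3 11.8 CPM, so the ranges met there. None of the 15 nucleic acid sensing genes, 5 negative regulators, 14 GTPases or 7 MHC class II genes was called by either tool.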

How the data were processed

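RNA of isolated neurons was sequenced from poly(A) libraries as paired reads. Per the submitters, the authors used fastp and FastQC on the reads, STAR to align to GRCm39, SAMtools to filter, StringTie to count per gene and DESeq2 to test. The sources used here give no versions, annotation release or strand setting. The deposited counts are whole numbers per gene. Of 46382 listed genes, 49 repeats of a symbol were dropped. The deposited normalized values were not used. Littermates are the replicates.

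Counts were tested with the quasi-likelihood test of edgeR 4.0.16 (R 4.3.3, TMM, filterByExpr, robust) with p-values adjusted over 21542 genes (Benjamini-Hochberg, threshold 0.05), and with DESeq2 1.42.0 on 29539 genes with at least 1 count. limma-voom (limma 3.58.1) was an alternative. SE is the log2 fold change over the root of F. Log2 CPM used a prior count of 2. Exact two-sided permutation tests ran over 35 arrangements of the labels, so 0.0286 is the smallest p. Both tests were tested on simulated data. Lengths are merged exons of GENCODE M39. Zero counts cover counting error only. Other alternatives were RLE, upper-quartile and library-total scaling, no filter, a mean CPM of at least 1, the replicate number as a block, vascular and microglia covariates, and leaving out each library.

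The genes and lists were chosen with earlier results of these data known. Values per library are given for the genes with the smallest edgeR p in each role group (2, or 1 in the group of 2), for those called or not overlapping, and for H2-K1, H2-D1 and B2m. Rsad2, Isg15 and Nlrc5 were added after their values were seen. Up to 3 genes of each pathway list and all its calls could be named. Ifnar1 was added. A gene of the lists is not reported here.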

Additional observations from a re-analysis of the deposited data

Results flagged for a closer look

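Among the cre- libraries, the level of Gbp2 was 57.3 CPM in replicate 4, against 41.8, 40.2 and 42.9 CPM in replicates 1 to 3. The gap between the highest library and the next was 0.839 of the whole range, past the limit of Dixon's test for 4 samples. Each of the 38 genes was examined in this way in the cre- libraries, and chance alone gives such a value in some of the genes.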

How the results depend on the processing

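In edgeR, 0 of the 38 genes were called higher or lower under every alternative run, while DESeq2 in its place called 5 higher. That DESeq2 count was 5 with TMM or upper-quartile factors, with the edgeR filter and with genes of mean CPM at least 1, 4 with the replicate block, 1 with library totals, 0 with the vascular covariate, 0 with the microglia covariate, and 0 to 7 when 1 library was left out (lowest without cre+ replicate 1, cre- replicate 2 or cre- replicate 3). Without cre+ replicate 1 and with the vascular covariate together, a setting chosen after seeing the data like the TMM factors and the edgeR filter in DESeq2, the count was 0 and the median log2 fold change -0.044. RLE factors and no filter are DESeq2's own settings and gave no separate value. Over all genes, DESeq2 called 1095 higher in the main fit and 525 with library totals. It called 57 higher with the vascular covariate, 547 with the microglia covariate, and 407 to 1163 when 1 library was left out. Over 16 alternatives the adjusted p in DESeq2 ran from 0.0025 to 0.855 for Ifitm2, 0.0037 to 0.81 for Tapbp, 0.0049 to 0.705 for Ifi27, 0.0094 to 0.876 for Tap2 and 0.0168 to 0.784 for Ifih1.

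The median log2 fold change of 0.34 was -0.073 with the vascular covariate and 0.094 to 0.51 when 1 library was left out, lowest without cre+ replicate 1. Library totals moved the median of all genes to -0.16, against -0.04 with TMM factors, and gave Xaf1 -0.072 and Tap1 -0.0069. With the vascular covariate, log2 fold changes below 0 in place of above it were -0.33 for Irf7, -0.41 for Oas1a, -0.11 for Oasl2, -0.12 for Ifit2, -0.51 for Ifit3, -0.13 for Rtp4, -0.69 for Xaf1, -0.34 for Ifi44, -0.0057 for Ifitm3, -0.50 for Isg15, -0.11 for Usp18, -0.040 for Trim25, -0.029 for Gbp2, -0.47 for Gbp3, -0.18 for H2-K1, -0.21 for Tap1, -0.19 for Psmb8 and -0.14 for Psmb9. The microglia covariate gave Oas2 0.24 and Rsad2 0.67, and limma-voom gave Xaf1 -0.013. Leaving out 1 library changed the sign of 12 genes, with ranges of -0.29 to 0.18 for Stat2, -0.13 to 0.49 for Irf7, -0.10 to 0.54 for Oas1a, -0.54 to 0.18 for Oas2, -0.84 to 0.48 for Rsad2, -0.49 to 0.33 for Xaf1, -0.085 to 0.61 for Ifi44, -0.18 to 0.59 for Isg15, -0.14 to 0.51 for Trim25, -0.10 to 0.28 for Tap1, -0.025 to 0.50 for Psmb8 and -0.40 to 0.021 for Nlrc5. The cause was not tested.

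Same-numbered libraries of the genotypes deviated with correlations over genes of -0.03, -0.0036 and 0.09, so the numbers were not taken to pair them. With the number as a replicate block the median was 0.41, edgeR called 0, DESeq2 called 4 (Tap2 was lost), and Oas2 had 0.024.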

Other observations

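Isg20, an interferon-inducible exonuclease that is not among the 38 genes, shared its highest libraries with Rsad2, and both were set beside the globin gene Hba-a1 after their values were seen. Isg20 had 119, 38.9 and 20.7 CPM in cre+ libraries, against 156, 40.3, 56.4 and 49.8 CPM in cre- libraries. Hba-a1 had 13898, 5711 and 2495 CPM in cre+, against 20825, 5015, 6550 and 5912 CPM in cre-. In all 3 genes the highest library was cre- replicate 1 and the next was cre+ replicate 1. The part of red blood cell RNA in the levels of Rsad2 and Isg20 was not tested.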
